A study of Mus musculus with 3 samples.

Results

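Cluster 3 is the group of dividing keratinocytes of the mouse anorectal junction, the border between the columnar lining of the distal colon and the squamous lining of the anus. Its members are the cells to which the authors' deposited cell table gives cluster number 3, and that table calls them keratinocytes. There were 3226 of them among 37080 cells, with 269 at day 0, 1983 at day 7 and 974 at day 42. They were set against the 17095 keratinocytes of the authors' other 9 keratinocyte clusters (1, 4, 5, 8, 9, 12, 13, 17 and 26) and between days within the cluster. All mice were C57Bl/6, bought at 6 weeks of age, with no transgene or deletion named in the labels. The day 0 group was untreated, and the day 7 and day 42 groups had 3% dextran sulfate sodium (DSS, which damages the colon epithelium) for 6 days in what they drank, dissected with severe colitis and after recovery respectively. Distal colon and anus of 5 mice were pooled per day, dissociated by trypsin, cleared of dead cells, filtered and made into 1 library of 10x Chromium 3′ RNA sequencing, so each day is 1 sample and no test between days was possible.

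Stratified epithelium is renewed by division of keratinocytes in and near its basal layer, whose daughters leave the cycle and differentiate as they move up. A dividing cell first copies its DNA with the replication machinery (the Mcm helicase, ribonucleotide reductase, DNA polymerases) and then builds up the mitotic genes (cyclins A and B, Cdk1, kinetochore and spindle proteins, and the anaphase-promoting complex, APC/C, with its activator Cdc20 and its ubiquitin-conjugating enzyme Ube2c). After injury, squamous epithelium is known to express the keratins Krt6, Krt16 and Krt17 and ligands of the EGF receptor.

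The label was checked against marker genes. The basal keratin Krt14 had 6589, 13606 and 13074 counts per 1000000 UMIs (CPM: a gene's unique molecular identifiers, UMIs, as a share of all UMIs of the cluster in that library, scaled to a sum of 1000000) at day 0, day 7 and day 42, and its partner Krt5 had 3130.3, 4265 and 4245. Birc5, survivin of the chromosomal passenger complex, had 473, 308 and 459 CPM in cluster 3 against 39.0, 57.6 and 30.1 in the other keratinocytes. Ube2c had 723, 341 and 697 CPM against 47.1, 68.1 and 21.4, and Cdc20 had 359, 200.1 and 354 against 29.0, 37.3 and 19.5. Rrm2, the small subunit of ribonucleotide reductase, had 106, 225 and 123 CPM against 14.8, 33.0 and 26.9. These 4 division markers were higher in cluster 3 at every day. The other 2 markers depended on the day. Krt17, a wound and follicle keratin, had 656 CPM in cluster 3 at day 0 against 1265 in the other keratinocytes, then 3788 against 1138 at day 7 and 891 against 809 at day 42. Fst, follistatin, a secreted antagonist of activin, had 2.08 CPM against 23.0 at day 0, 231 against 22.6 at day 7 and 158 against 84.9 at day 42. At day 0 both were lower in cluster 3 than in the other keratinocytes. The genes used in the clustering are not given in the sources used here and may include these, so every contrast of cluster 3 with the other keratinocytes is given as a description, with no test.

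The 4 division markers lie on GRCm38 at chr2:164769898-164778822 on the plus strand (Ube2c, ENSMUSG00000001403), chr11:117849251-117855743 on the plus strand (Birc5, ENSMUSG00000017716), chr4:118432901-118437352 on the minus strand (Cdc20, ENSMUSG00000006398) and chr12:24708241-24714146 on the plus strand (Rrm2, ENSMUSG00000020649), in GENCODE M21. Krt17 (ENSMUSG00000035557) lies at chr11:100256217-100261029 on the minus strand and Fst (ENSMUSG00000021765) at chr13:114452290-114458951 on the minus strand.

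Because mitotic and replication genes moved apart between the days, the promoters of 3 mitotic division markers (Ube2c, Cdc20 and Birc5) and of 2 replication genes (Rrm2 and Mcm3) are shown, from 250 bases before to 50 bases after the RefSeq start (GRCm38.p6), 5′ to 3′ on the gene's strand. Capitals mark matches, on either strand and counted with overlaps, to CCAAT (the NF-Y box), to TTTGAA or TTCGAA (the cell cycle homology region, CHR) and to the E2F letters TTTGGCGC, TTTCGCGC, TTTCCCGC and TTCCCGCC. The Ube2c window is chr2:164769679-164769978 (plus strand), the Cdc20 window chr4:118437294-118437593 (minus), the Birc5 window chr11:117848987-117849286 (plus), the Rrm2 window chr12:24708004-24708303 (plus) and the Mcm3 window chr1:20820263-20820562 (minus).
Ube2c: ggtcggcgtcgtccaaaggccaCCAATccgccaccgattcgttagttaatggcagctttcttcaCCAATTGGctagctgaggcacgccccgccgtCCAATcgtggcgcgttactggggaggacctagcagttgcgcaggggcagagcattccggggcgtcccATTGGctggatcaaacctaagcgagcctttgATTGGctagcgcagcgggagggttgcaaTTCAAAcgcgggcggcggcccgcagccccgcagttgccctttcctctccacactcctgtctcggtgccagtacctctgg
Cdc20: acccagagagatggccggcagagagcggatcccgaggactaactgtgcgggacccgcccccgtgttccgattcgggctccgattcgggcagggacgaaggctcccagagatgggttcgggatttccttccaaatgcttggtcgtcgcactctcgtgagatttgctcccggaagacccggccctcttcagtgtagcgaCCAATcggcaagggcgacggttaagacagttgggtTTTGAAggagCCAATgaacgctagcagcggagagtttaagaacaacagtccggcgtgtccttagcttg
Birc5: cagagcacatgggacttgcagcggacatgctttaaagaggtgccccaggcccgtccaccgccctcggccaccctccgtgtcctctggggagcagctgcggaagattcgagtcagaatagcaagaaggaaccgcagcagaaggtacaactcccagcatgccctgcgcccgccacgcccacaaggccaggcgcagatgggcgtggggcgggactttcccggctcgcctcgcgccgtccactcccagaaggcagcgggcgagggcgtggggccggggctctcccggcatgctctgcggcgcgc
Rrm2: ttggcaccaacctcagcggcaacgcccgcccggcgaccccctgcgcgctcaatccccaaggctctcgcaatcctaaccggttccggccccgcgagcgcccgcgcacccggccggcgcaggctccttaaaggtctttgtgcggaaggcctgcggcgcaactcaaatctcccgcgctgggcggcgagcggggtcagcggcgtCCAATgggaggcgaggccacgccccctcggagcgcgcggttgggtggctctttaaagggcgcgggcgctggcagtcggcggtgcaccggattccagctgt
Mcm3: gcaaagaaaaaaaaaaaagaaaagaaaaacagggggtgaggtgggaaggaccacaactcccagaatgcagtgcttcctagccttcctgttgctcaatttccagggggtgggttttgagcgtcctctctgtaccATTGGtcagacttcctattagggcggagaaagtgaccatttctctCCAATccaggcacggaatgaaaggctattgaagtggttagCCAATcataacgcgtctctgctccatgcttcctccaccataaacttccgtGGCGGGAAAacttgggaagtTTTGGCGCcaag

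The Ube2c window held 6 CCAAT matches and 1 CHR match, and the Cdc20 window held 2 and 1. The Birc5 window held 0 matches to any of the 3 motifs, and that of the cyclin Ccnb1, not shown, held 2 CCAAT and 0 CHR matches. The Rrm2 window held 1 CCAAT match, and that of Mcm3, a helicase subunit, held 3 CCAAT and 3 E2F matches. Of the 70 genes in 5 mitotic lists, 57 had a window, and 75.4% of these held CCAAT, 80.7% a CHR, 68.4% both and 7.02% an E2F match. Of the 37 replication genes, 32 had a window, with CCAAT in 53.1%, a CHR in 15.6% and an E2F match in 46.9%. Over all 27025 windows the shares were 37.9% for CCAAT, 19.4% for the CHR, 7.70% for both and 3.57% for E2F. A match is a run of letters, not a measured binding site, and no match says only that these letters are not in the window.

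Cluster 3 took its largest share of the keratinocytes at day 7. It held 8.11% of them at day 0 (269 of 3316; exact Clopper-Pearson 95% interval 7.21–9.09), 21.9% at day 7 (1983 of 9035; 21.1–22.8) and 12.2% at day 42 (974 of 7970; 11.5–12.96). The 3 intervals did not overlap. All intervals given reflect the counting of cells or UMIs and not how mice differ, and a share depends on what the digestion released from each pool. Of all cells, cluster 3 was 2.44% at day 0, 13.8% at day 7 and 8.35% at day 42. Barcodes were mostly unique to a library: 139 occurred in more than 1, 23 cluster 3 cells shared theirs with a cell of another library, and 0 barcodes were in cluster 3 of 2 libraries.

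Cells of cluster 3 carried more UMIs than the other keratinocytes pooled, most of all at day 7. The median cell had 13704 UMIs and 3579 genes at day 0, 25857 UMIs and 4761 genes at day 7, and 9242.5 UMIs and 2809.5 genes at day 42. Medians of the other keratinocytes were 8764, 9203 and 6266.5 UMIs, so cluster 3 stood 1.56-fold, 2.81-fold and 1.47-fold above them. Against cluster 1 alone the ratio of medians was 1.5, 2.24 and 1.49. Single clusters came close to or above cluster 3 at day 0, with medians of 12923 in cluster 4, 13340.0 in cluster 5 and 14570.5 in the 12 cells of cluster 26, and the 3 cells of cluster 26 were deeper at day 42. Mitochondrial UMIs were 8.17%, 4.67% and 5.89% of the median cluster 3 cell. Depth therefore differed between the days together with every CPM value below, and its part in them was not tested.

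**Figure D1:**
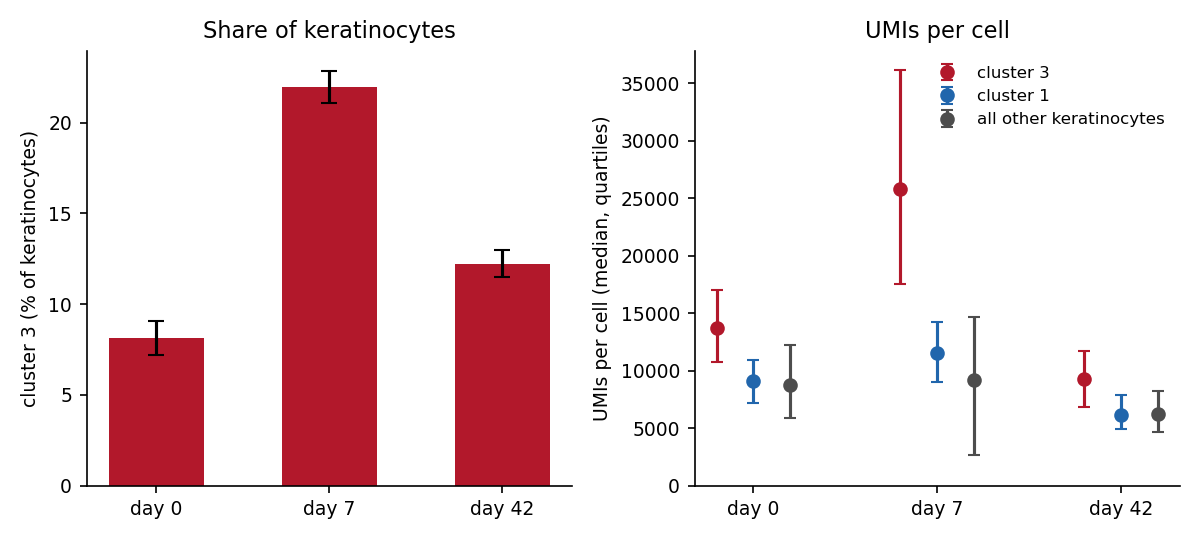
Left, cluster 3 as a percentage of all keratinocytes of each library, with exact 95% binomial intervals (counting error only). Right, median UMIs per cell with quartiles in cluster 3, cluster 1 and all other keratinocytes; the day 7 cluster 3 median of 25857 lies above all the others.

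Mitotic genes took a smaller fraction of the RNA of cluster 3 at day 7 than at day 0 or day 42, while replication genes did not. Summed over the 70 mitotic genes, cluster 3 had 17698 CPM at day 0, 9715 at day 7 and 14836 at day 42. Summed over the 37 replication genes it had 2092, 2500.2 and 1919.7. The ratio of mitotic to replication UMIs was 8.46 (95% interval 8.27–8.66), 3.89 (3.86–3.91) and 7.73 (7.61–7.85). In the other keratinocytes the same ratio was 3.51, 3.51 and 2.40, so cluster 3 lay above them at each day and nearest to them at day 7.

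Counted as UMIs per cell, the pattern was another one. From day 0 to day 42 in order of time, a cluster 3 cell had on average 253, 273 and 146 mitotic UMIs within a total of 14301, 28148 and 9827 UMIs. Mean replication UMIs per cell were 29.9, 70.4 and 18.9. The day 7 cell thus had about as many mitotic UMIs as the day 0 cell within a larger total, and more replication UMIs. Single genes differed from day 0 to day 7: Cenpf (9.55 to 4.38), Mki67 (10.8 to 6.86), Top2a (10.4 to 8.03) and Ube2c (10.3 to 9.60) were lower per cell. Birc5 (6.76 to 8.67) and Cdc20 (5.14 to 5.63) were higher. The other keratinocytes had 9895, 10280 and 6940 UMIs per cell, and the part of each library's capture and sequencing in these values was not tested.

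Gene by gene, days were compared as the log2 ratio of CPM with 10 CPM added to both sides, over genes that reached 10 CPM in 1 library or both, and a log2 ratio of at least 1 or at most -1 is called 2-fold. The added 10 CPM understates ratios of low genes. At day 7 against day 0, 0 of the 70 mitotic genes were 2-fold higher and 30 were 2-fold lower, where 2.59% of all 8316 genes were 2-fold higher and 3.26% lower. Their median log2 ratio was -0.89 against -0.055 over all genes, and 69 of 70 were below 0. At day 42 against day 7, 8 of 69 were 2-fold higher and 0 lower, with 1.65% and 0.845% of all 8050 genes, and the median was 0.64 against 0.035. At day 42 against day 0, 0 of 70 were 2-fold either way, with 1.62% of all 8292 genes higher and 0.651% lower, and the median was -0.26 against -0.022. The 3 day comparisons share libraries, so they are not independent of each other.

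The mitotic lists differed in size of the day 7 difference. Of the spindle and cytokinesis genes, 15 of 21 were 2-fold lower at day 7 than at day 0, with a median log2 ratio of -1.13. Aspm, a spindle-pole protein, had 178 CPM at day 0, 37.5 at day 7 and 120.2 at day 42. Nusap1, which bundles spindle microtubules, had 245, 59.1 and 171 CPM, and Prc1, of the central spindle, 375, 132 and 303. Of the kinetochore and passenger genes, 7 of 15 were 2-fold lower (median -0.89), led by the kinetochore protein Cenpf with 668, 156 and 491 CPM (log2 ratio -2.03 at day 7 against day 0). Of the chromatin genes, 5 of 11 were 2-fold lower (median -0.94): the proliferation antigen Mki67 had 757, 244 and 504 CPM and topoisomerase Top2a 725, 285 and 511. In all 6 of these genes day 7 was lowest and day 42 lay between day 7 and day 0.

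Cyclins and the APC/C moved less. Of the cyclin and Cdk1 list, 1 of 12 was 2-fold lower (Bora, an activator of Aurora A and Plk1; 66.8, 27.7 and 49.5 CPM) and the median was -0.64. Cyclin B1 (Ccnb1) had 226, 141 and 228 CPM, Cdk1 279, 175 and 261, and cyclin A2 (Ccna2) 176, 125 and 180. Of the APC/C and checkpoint list, 2 of 11 were 2-fold lower (median -0.69): Ube2c, at a log2 ratio of -1.06 (-0.98 in cells with at least 10 mitotic UMIs, and also without the 10 cells with most Ube2c), and the checkpoint kinase Bub1b (83.4, 35.5 and 61.2 CPM). Ube2s, the enzyme that elongates the ubiquitin chains Ube2c starts, had 595, 608 and 629 CPM and was the 1 gene of the 70 above 0. Birc5 and Cdc20 were lower at day 7 without reaching 2-fold, with log2 ratios of -0.60 and -0.81.

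Replication genes leaned the other way at day 7. Of 37, 29 were above 0 at day 7 against day 0 (median 0.21), 2 were 2-fold higher and 0 lower, near the shares over all genes (2.59% and 3.26%). These 2 were Rrm2 (log2 ratio 1.02) and the uracil-DNA glycosylase Ung, with 9.88, 31.4 and 11.9 CPM. Rrm2 was close to the 2-fold limit and fell short of it under 5 alternatives, at log2 ratios of 0.83 to 0.99. All of the helicase genes Mcm2 to Mcm7 had their highest level at day 7: Mcm3 had 47.6, 93.6 and 46.0 CPM, Mcm5 46.5, 87.4 and 52.9, and Mcm7 70.7, 115 and 76.8. The sliding clamp Pcna differed little, with 102, 109.8 and 81.1 CPM, and thymidine kinase Tk1 (145, 103 and 109 CPM) and the checkpoint adaptor Clspn (77.5, 46.2 and 56.4) were lower at day 7 than at day 0. At day 42 against day 7, 32 of 37 were below 0 and 0 were 2-fold either way. At day 42 against day 0 the median of 36 genes was -0.052, with 0 past 2-fold.

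**Figure D2:**
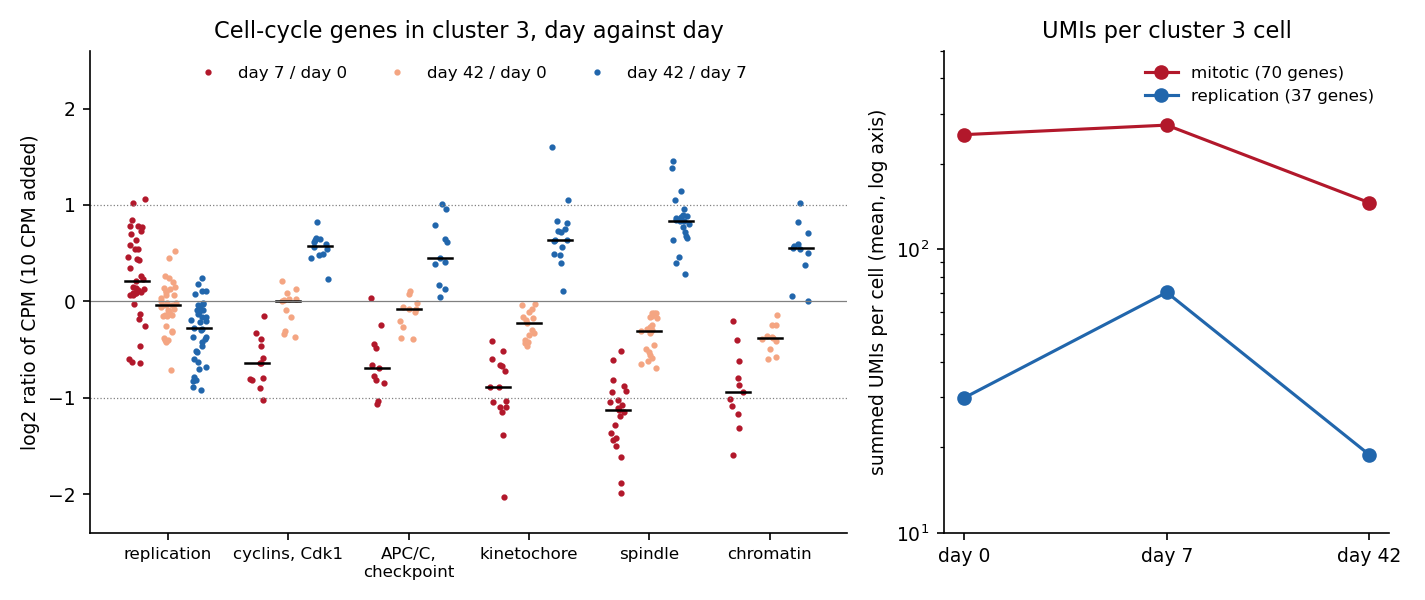
Left, log2 ratios between days of the replication list and the 5 mitotic lists in cluster 3, 1 point per gene that passed the filter, with list medians as bars and dotted lines at 2-fold. Right, mean summed UMIs per cluster 3 cell on a log axis; mitotic UMIs were 253, 273 and 146 and replication UMIs 29.9, 70.4 and 18.9 at days 0, 7 and 42.

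The transcription factors of the cycle and the G1 regulators gave mixed values. Foxm1, an activator of mitotic genes, had 56.4, 19.5 and 36.3 CPM, whereas Mybl2, of the complex that binds CHR promoters, had 11.96, 33.5 and 21.8. Of 14 cyclin D and inhibitor genes that passed the filter, 1 was 2-fold higher and 3 were 2-fold lower at day 7 against day 0, beside 2.59% and 3.26% of all genes (median -0.26). The higher was the G1 kinase Cdk6, with 75.1, 164 and 108 CPM, and cyclin D1 (Ccnd1) had 221, 395 and 325. The lower were the inhibitors Cdkn1b (109, 38.4 and 78.1 CPM) and Cdkn2c (61.9, 18.1 and 43.1) and the cyclin G gene Ccng2 (29.9, 8.53 and 23.2). Cdkn1a, the p21 inhibitor, had 42.6, 68.6 and 96.5 CPM and was the 1 gene of 16 past 2-fold at day 42 against day 0, with 0 lower (1.62% and 0.651% of all genes).

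To compare cells at equal depth, each cell was thinned at random to 2000 UMIs. At day 0 all 269 cells had enough, and 1 cell was left out at day 7 and 2 at day 42. The median cluster 3 cell then had 35, 17 and 30 mitotic UMIs at days 0, 7 and 42. The quartiles spanned 24 to 47, 11 to 25 and 21 to 40, so the days overlapped cell by cell while day 7 was shifted down. Cells with at least 10 mitotic UMIs were 89.96% of the cluster at day 0 (95% interval 85.7–93.3), 81.2% at day 7 (79.4–82.9) and 95.5% at day 42 (93.97–96.7). Those near that limit, with 8 to 11, were 1.49% plus 2.602% at day 0, 6.41% plus 6.56% at day 7 and 1.44% plus 1.85% at day 42, giving those below and above it in turn.

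After thinning, a Mki67 or Top2a UMI was found in 82.2% at day 0 (77.0–86.5), 53.8% at day 7 (51.6–55.997) and 76.7% at day 42 (73.96–79.4). Without thinning the shares were 92.9%, 92.6% and 95.2%. Neutrophils, which do not divide, gave a background of 3.10% at day 7 after thinning (median 2585 UMIs per cell before thinning), and enteroendocrine cells at day 0 gave 0 of 66 cells.

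**Figure D3:**
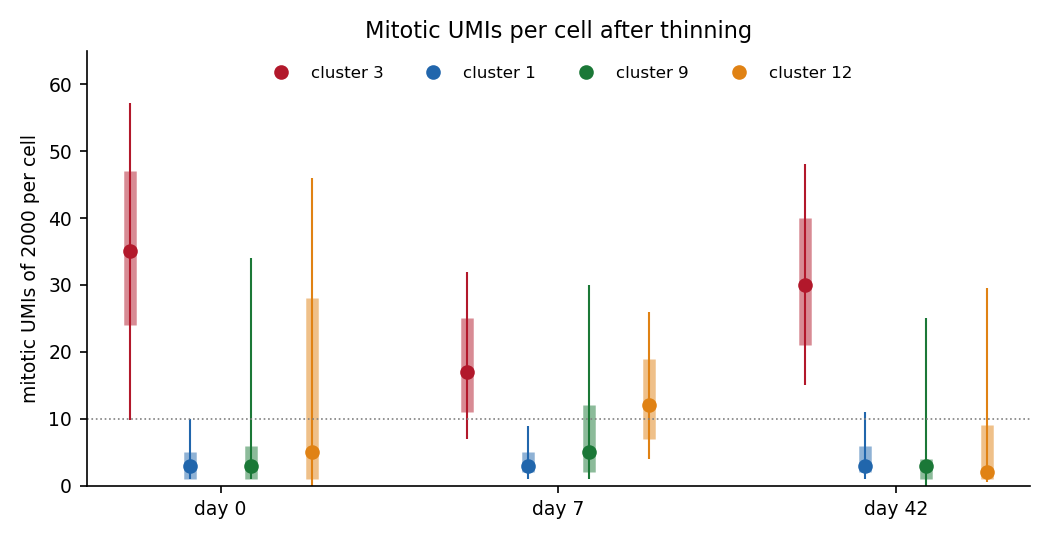
Mitotic UMIs (70 genes) per cell after thinning to 2000 UMIs in clusters 3, 1, 9 and 12 by day: points are medians, thick bars quartiles, thin lines the 10th to 90th percentiles, and the dotted line marks 10. Cluster 3 medians were 35, 17 and 30; cluster 12 at day 7 had a median of 12.

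Cells with mitotic RNA were not confined to cluster 3. Of the keratinocytes deep enough to be thinned (3208 of 3316, 7637 of 9035 and 7696 of 7970 at days 0, 7 and 42), 16.8%, 26.7% and 17.2% had a Mki67 or Top2a UMI, and cluster 3 held 40.9% (36.7–45.2), 52.3% (50.1–54.5) and 56.3% (53.6–59.0) of those cells. Cells with at least 10 mitotic UMIs were 10.2%, 8.19% and 12.6% of cluster 1 and 18.96%, 29.4% and 14.7% of cluster 9. In cluster 12 at day 7 they were 62.2% of the 637 cells deep enough to be thinned, but 1031 of that cluster's cells were left out, its median cell having 1672.5 UMIs.

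Measured against the other keratinocytes, the mitotic genes stood out less at day 7. At day 0, 69 of 70 mitotic genes were 2-fold higher in cluster 3 (4.37% of all 8613 genes were), with a median log2 ratio of 2.48. At day 7 it was 58 of 69 (4.51% of 8268 genes) with a median of 1.35, and at day 42 it was 68 of 69 (3.17% of 8189 genes) with 2.62. The 12 genes with the highest ratio at their lowest day were Birc5, Ube2c, Cdc20, Ccna2, Cdk1, Ccnb1, Cenpa, Cdca8, Rrm2, Pclaf, Cenpe and Ube2s. Pclaf, a partner of PCNA, had 302, 247 and 301 CPM in cluster 3 against 36.8, 61.8 and 36.3, Cenpa, the centromere histone, 381, 227 and 359 against 36.3, 50.1 and 26.4, and Cdca8, of the passenger complex, 294, 181 and 288 against 29.2, 40.1 and 22.5.

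At day 7 the cluster also carried more RNA of wound keratins and EGF receptor ligands than at day 0. Of 15 wound keratinocyte genes that passed the filter, 10 were 2-fold higher and 0 lower (2.59% and 3.26% of all genes), with a median log2 ratio of 1.36. Krt17 had a log2 ratio of 2.51 and its counting intervals were 631 to 682 CPM at day 0, 3772 to 3804 at day 7 and 872 to 910.1 at day 42. Krt16, another wound keratin, had 49.7, 674 and 199.8 CPM, Krt6a 1211, 3805 and 2855, and Krt6b 22.6, 301 and 101. Among the EGF receptor ligands, amphiregulin (Areg) had 40.6, 607 and 373 CPM, epiregulin (Ereg) 5.72, 41.5 and 27.2, Hbegf 93.3, 178 and 195, and Tgfa 9.88, 22.4 and 19.2. All 4 keratins of cluster 3 were highest at day 7 and its ligands were above day 0 at both later days. Other clusters had more of the keratins at day 7: cluster 17 had 6833 CPM of Krt17, and cluster 5 had 2469.6 of Krt16 and 8538 of Krt6a. Plaur, the urokinase receptor, had 10.9, 37.2 and 42.0 CPM and Inhba, an activin subunit, 3.64, 35.7 and 48.7.

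Fst and Stmn2 went from near the floor to high levels. Fst had 8 UMIs in the whole cluster at day 0, 12888 at day 7 and 1514 at day 42 (log2 ratio 4.32 at day 7 against day 0). Stmn2, a stathmin known from neurons, had 6.50 CPM at day 0 (95% interval 4.21–9.59), 452 at day 7 and 505 at day 42. At day 7 cluster 3 had the highest Stmn2, Fst and Areg of the 10 keratinocyte clusters, with Areg close behind in cluster 5 at 585 CPM. Stmn2 was likewise low at day 0 in clusters 1, 5 and 12, at 3.18, 2.99 and 6.34 CPM. At day 7 it had 200.3, 249 and 286 CPM there, and at day 42 cluster 1 had 628, above cluster 3. In cluster 1, the basal anal cluster, Fst had 1.71, 16.7 and 137 CPM, Krt17 445, 383 and 1084, and Areg 38.7, 175 and 474. Cluster 1 was thus far below cluster 3 in Fst, Krt17 and Areg at day 7 and nearer to it at day 42. Cluster 12 lay between them at day 7, with 92.3 CPM of Fst, 2435.5 of Krt17 and 359.8 of Areg.

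**Figure D4:**
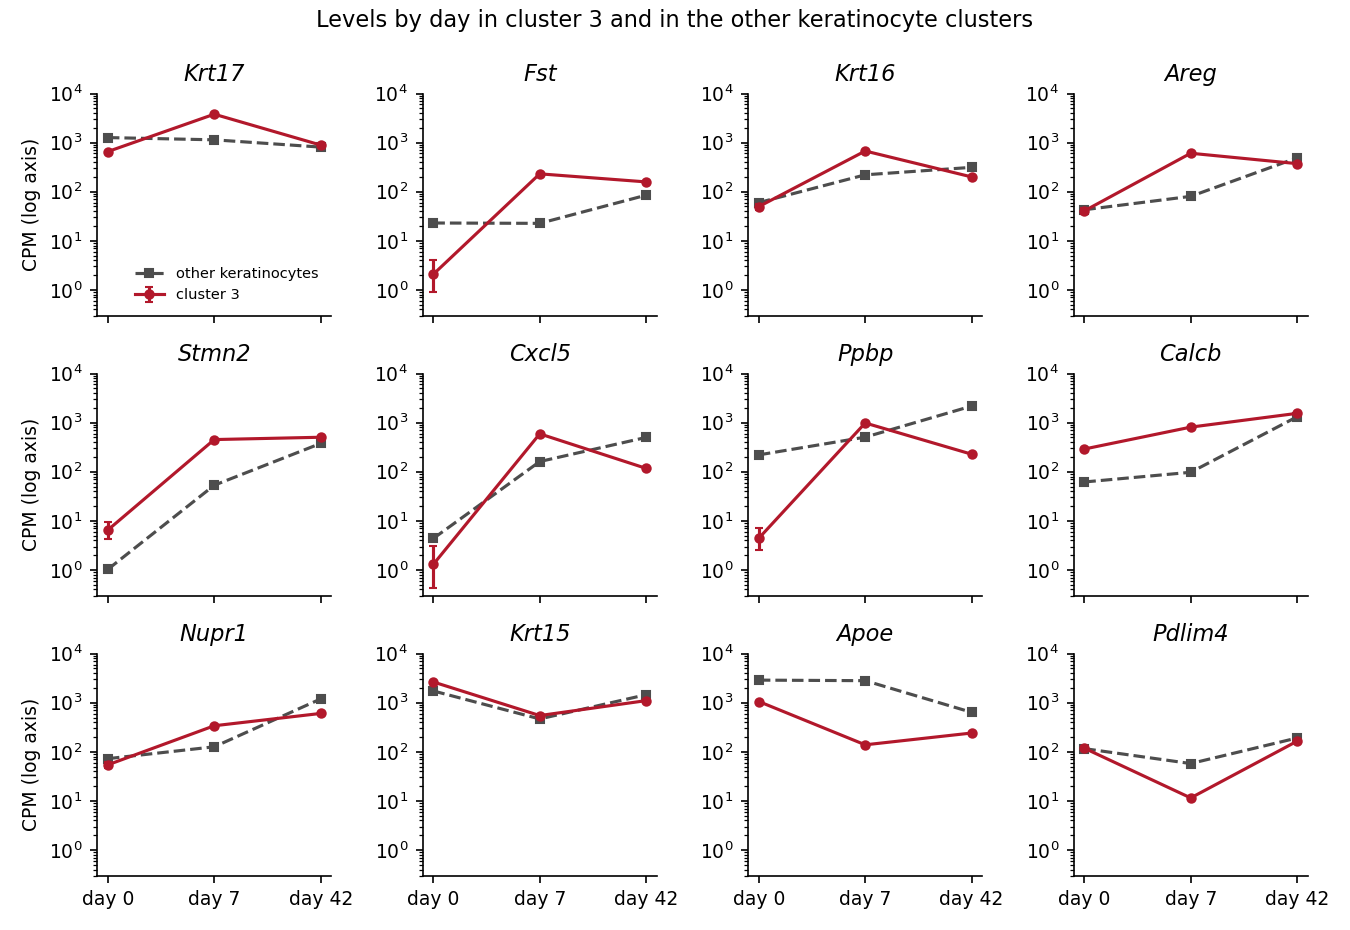
CPM by day, on log axes, of 12 genes in cluster 3 (with exact Poisson 95% intervals of the summed UMIs) and in all other keratinocytes together. Krt17, Fst, Krt16, Areg and Cxcl5 were higher in cluster 3 at day 7 than at day 0; Apoe and Pdlim4 were lower.

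Basal adhesion genes were divided. Of 13 basal keratinocyte genes, 5 were 2-fold higher and 3 lower at day 7 against day 0 (2.59% and 3.26% of all genes), with a median of 0.49. Among the higher were Krt14, the laminin chains Lama3 (25.7, 124 and 69.8 CPM) and Lamb3 (75.6, 169 and 141), and the laminin-binding integrin Itga3 (51.0, 115 and 57.1). Lower were the basal keratin Krt15, with 2647, 548 and 1104 CPM, the epidermal transcription factor Trp63, with 345, 157 and 231, and the hemidesmosome linker Dst, with 456, 189.9 and 314. Krt15 was also lower at day 7 in the other keratinocytes, with 1737, 467 and 1457 CPM.

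Epidermal suprabasal genes summed to less in cluster 3 than in the other keratinocytes at every day, and mucosal suprabasal genes did so at days 0 and 42. The 10 epidermal genes had 1653, 952 and 809.9 CPM in cluster 3 against 9695, 7647 and 2667, and the 8 mucosal genes 2326, 2206 and 2028 against 3306, 2002 and 7421. None of the 5 epidermal suprabasal genes that passed the filter was 2-fold higher at day 7 or day 42 against day 0, and 1 was lower each time, Krt1 with 435, 134 and 151 CPM (other keratinocytes 2486, 2354 and 636). The day 42 call of Krt1 was lost, at a log2 ratio of -0.10, with equal weight to the cells nearest clusters 1 and 9. Of 5 mucosal suprabasal genes, 2 were higher and 2 lower at both days. Over all genes 2.59% were higher and 3.26% lower at day 7, and 1.62% and 0.651% at day 42. Krt4 had 634, 279 and 123 CPM and the protease inhibitor Spink5 359, 77.4 and 155, while the matrix protein Ecm1 had 181, 437 and 699 and the lipid raft protein Mal 32.2, 91.8 and 79.4. The mucosal keratin Krt13 had 1119, 1315 and 969 CPM.

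Most inflammatory genes were under 5 CPM at day 0 and higher at day 7; the exception among those that passed the filter was the interleukin 1 receptor antagonist Il1rn, with 43.4, 34.8 and 51.2 CPM. Of 11 that passed the filter, 10 were 2-fold higher and 0 lower (2.59% and 3.26% of all genes), with a median log2 ratio of 2.66. Among genes of at least 100 CPM, the highest log2 ratios for day 7 over day 0 belonged to Ppbp, a platelet-type CXC chemokine (6.11; 4.42, 985 and 228 CPM), and Cxcl5, a neutrophil attractant (5.74; 1.30, 592 and 117 CPM). Cxcl3, a related chemokine, had 0.78, 104 and 20.3 CPM. Cxcl1 had 0 UMIs at day 0 and 26.7 CPM at day 7, at least 34.3-fold higher when day 0 is set to 3 counts over the cluster. Cluster 3 was not the highest cluster for these chemokines: cluster 5 at day 7 had 9277 CPM of Ppbp, 2600.3 of Cxcl5 and 375 of Cxcl3. Cxcl3 was higher still in neutrophils (912 CPM) and macrophages (503) at day 7, and the part of their RNA in the cluster 3 value was not tested. Ppbp and Cxcl5 were lower in those cells than in cluster 3, at 39.0 and 15.2 CPM in neutrophils and 111 and 43.0 in macrophages. Of the Ppbp UMIs of cluster 3, 14.7% were in 10 cells at day 7 and 41.0% at day 42.

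S100a9 and S100a8, the calprotectin subunits, had 1.30 and 0.78 CPM at day 0, 527 and 315 at day 7, and 72.1 and 31.9 at day 42. S100a8 rested on 3 UMIs at day 0, and the counting interval of its log2 ratio without added CPM was 7.11 to 10.9. Neutrophils had 127202 CPM of S100a9 and 89485 of S100a8 at day 7, and the other keratinocytes, at 1054 and 815, were above cluster 3. The 7 neutrophil markers summed to 7.54 CPM in cluster 3 at day 0, 135 at day 7 and 26.1 at day 42 (other keratinocytes 48.3, 272 and 43.4). At day 0 Csf3r, Retnlg and Mmp9 of that list were at 0, and at day 7 none was. With candidate doublets left out, the S100a8 ratio at day 7 against day 0 was 2.19 in place of 4.91, and that of S100a9 was 3.90 in place of 5.57. Neutrophil markers were not used to mark these candidates. The setting left 128 of 269 cells at day 0 and 920 of 1983 at day 7. The part of neutrophil RNA in these values was not tested.

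Among genes of at least 100 CPM, the lowest for day 7 over day 0 were Dcn (-3.05), Cyp2f2 (-2.88), Apoe (-2.84), Apoc1, Pdlim4, Aldh3a1, Krt15 and Ltbp4 (-2.22). Decorin (Dcn), a fibroblast matrix protein, had 151 CPM at day 0, 9.46 at day 7 and 28.5 at day 42, where fibroblasts had 10966, 10482 and 8935. The 6 fibroblast markers summed to 239.7, 36.6 and 53.3 CPM in cluster 3, with none at 0 at any day, and their part in the Dcn value was not tested. Without candidate doublets the Dcn ratio was -0.48. Dcn is itself among the fibroblast markers by which cells were marked as candidates. That setting therefore removes cells by their Dcn counts and cannot show where the Dcn RNA came from. The apolipoprotein Apoe had 1059, 139 and 241 CPM, the cytochrome P450 Cyp2f2 113, 6.61 and 51.4, the aldehyde dehydrogenase Aldh3a1 130.2, 17.7 and 42.9, and Pdlim4, a PDZ and LIM protein of the actin cytoskeleton, 119, 11.5 and 165. Pdlim4 was lower at day 7 alone, while the others were below day 0 at day 42 as well. In cluster 1 the log2 ratios of Apoe and Pdlim4 at day 7 against day 0 were -1.12 and -0.85.

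Comparing day 42 with day 0 among genes of at least 100 CPM, the 8 highest by log2 ratio were Stmn2 (4.96), Ppbp (4.04), Fst (3.80), Cxcl5 (3.49), Tm4sf1 (3.48), Nupr1 (3.26), Areg (2.92) and Calcb (2.38). Equal weight to the cells nearest clusters 1 and 9 lowered all 8, among them Stmn2 to 4.21, Fst to 3.06, Ppbp to 2.82, Tm4sf1 to 2.74 and Cxcl5 to 2.34. In cluster 1 the same ratios were 5.60 for Stmn2, 4.62 for Ppbp, 4.57 for Nupr1, 4.21 for Tm4sf1, 3.69 for Cxcl5, 3.31 for Areg and 3.18 for Calcb, above those of cluster 3, and 3.65 for Fst, below it. Of 11 transition zone genes, 7 were 2-fold higher and 1 lower (1.62% and 0.651% of all genes, median 1.15). At day 7 against day 0 it was 6 and 1 (2.59% and 3.26% of all genes, median 1.11). Stmn2, already named, is in this list, which was chosen with earlier results of these data known. The counts are therefore a description. Calcb, the beta form of calcitonin gene-related peptide, had 290.1, 811 and 1548 CPM, and Calca, the alpha form, 4.16, 29.3 and 82.95. Tm4sf1, a small membrane protein, had 8.58, 87.5 and 197 CPM, the surface protein Psca 11.2, 39.3 and 92.0, Ly6d 1063, 1224 and 2380.3, and Krt7, a simple keratin, 328, 562 and 678. These 6 had their highest level at day 42. Krt8 and Krt18 did not share that order, with 74.1, 17.9 and 26.3 CPM for Krt8 and 28.1, 72.2 and 21.3 for Krt18. The 10 colonocyte markers summed to 184, 53.8 and 114 CPM in cluster 3 (other keratinocytes 211, 110 and 292). The part of colonocyte RNA in the Krt8 and Krt18 values was not tested. Nupr1, a stress-response regulator, had 54.3, 340 and 605 CPM. Wound genes were 2-fold higher in 7 of 13 at day 42 against day 0 and lower in 0, against 1.62% and 0.651% of all genes. Krt17 had a log2 ratio of 0.44, which was 0.17 in thinned cells and turned to -0.068 with equal weight to the cells nearest clusters 1 and 9.

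The lowest of these genes at day 42 against day 0 were Krt4 (-2.27), Apoe (-2.09), Dcn (-2.06), Apoc1 (-1.83), Calm4 (-1.79), Lars2 (-1.48), Krt1 (-1.47) and Aldh3a1 (-1.41). Calm4, a calmodulin of differentiating epidermis, had 316, 90.0 and 84.0 CPM, and Lars2, the mitochondrial leucyl-tRNA synthetase, 449, 211 and 154. Giving equal weight to the cells nearest clusters 1 and 9 moved several of these, with -0.10 for Krt1, -0.54 for Apoe, -0.72 for Aldh3a1, -0.83 for Apoc1, -0.97 for Lars2 and 0.069 for Dcn, so that only Krt4 and Calm4 of the 8 stayed past 2-fold. Immediate early and heat shock genes that tissue digestion is known to induce were also higher at day 42 than at day 0, in 7 of 12 past 2-fold with 0 lower (1.62% and 0.651% of all genes; median 1.03). Fos had 139.9, 320 and 467 CPM and Atf3 35.4, 138 and 173. Whether handling had a part in the day 42 values was not tested.

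Comparing day 42 with day 7, again among genes of at least 100 CPM, the 8 highest by log2 ratio were Pdlim4 (3.02), Tppp3 (2.29), Igfbp7 (2.07), S100a4 (2.02), Glul (1.96), B2m (1.95), H2-K1 (1.75) and Cenpf (1.60). The MHC class I genes B2m and H2-K1 had 56.7 and 156 CPM at day 0, 43.6 and 113 at day 7, and 197 and 404 at day 42. S100a4, a calcium-binding protein, had 583, 202 and 848 CPM, Igfbp7, which binds insulin-like growth factors, 344, 111 and 501, and glutamine synthetase (Glul) 112, 37.3 and 174. All 5 of these were lowest at day 7. The lowest ratios above that limit were those of S100a8 (-2.96), S100a9 (-2.71), Sostdc1 (-2.31), Cxcl5 (-2.24), Cst6 (-2.19), Krt17 (-2.08), Ppbp (-2.07) and Cxcl3 (-1.91). Sostdc1, a Wnt and BMP antagonist, had 20.5, 129 and 17.9 CPM. Cst6, a cystatin, rested on few cells: 69.8% of its day 7 UMIs were in 10 cells, and without the 10 cells with most in each library its ratio was -0.84.

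Within cluster 3 at day 7, cells with fewer mitotic UMIs had more RNA of Krt16, Krt6b and Krt13 and less of Krt17. There, 42 cells had at most 2 mitotic UMIs of 2000, 330 had 3 to 9 and 1610 had at least 10, with medians of 21760.0, 21762 and 26802.5 UMIs per cell. Across these ranges Krt16 was 1579, 1419 and 526 CPM, Krt6b 1188, 866 and 184, and Krt13 5003, 2753 and 988. Fst went the other way, with 91.4, 161 and 246 CPM, as did the integrins Itga6 (349, 498 and 636) and Itga3 (38.8, 66.7 and 125). Krt17 also went that way, at 2871, 3448 and 3867 CPM. At day 42, with 9, 35 and 928 cells, Krt13 kept its order (3162.5, 2793 and 855 CPM), while Krt16 (344, 830.4 and 168), Krt17 (1349, 2845 and 792) and Fst (18.6, 393 and 149) had their highest level in the middle range. Among cells with at least 10, Krt17 was 620, 3867 and 792 CPM at days 0, 7 and 42, and Fst 2.30, 246 and 149. The day difference in both genes was thus also present within these cells. Cells with at least 10 were 242, 1610 and 928 of the 269, 1983 and 974 in the cluster. Their values therefore had to lie near those of the whole cluster. At day 0, 8 cells had at most 2 and 19 had 3 to 9.

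Each cluster 3 cell was also assigned to the other keratinocyte cluster whose mean profile made its counts most likely, leaving out cell-cycle, mitochondrial and ribosomal protein genes. The nearest was cluster 1, the basal anal cluster, for 66.2% of cells at day 0 (95% interval 60.2–71.8), 81.8% at day 7 (80.0–83.5) and 88.2% at day 42 (86.0–90.2). Cluster 9 was nearest for 27.9% at day 0 (22.6–33.7), 2.02% at day 7 and 6.26% at day 42. Its day 0 share was 8.18% with profiles of the same library and 8.92% by Spearman correlation. Cluster 12 was nearest for 0.74%, 8.57% and 1.44%, and cluster 5 for 2.602%, 5.85% and 2.67%. Sorting the other clusters' own cells the same way returned 91.8% of cluster 1 cells and 98.3% of cluster 9 cells, but 37.7% of cluster 12 cells, to their own cluster.

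This order depended on the profiles. With profiles of the same library alone, cluster 1 was nearest for 85.9%, 32.7% and 85.9% of cells, and at day 7 cluster 12 was nearest for 59.0%. By Spearman correlation cluster 1 was nearest for 81.4%, 82.7% and 89.3%, and cluster 12 for 0.20% at day 7, so the methods differed on which cluster was nearest at day 7. Across genes, the log levels of cluster 3 correlated with those of cluster 1 at r = 0.866 at day 0 (1279 genes), 0.827 at day 7 (1388 genes) and 0.944 at day 42 (1295 genes), and with cluster 12 at 0.455, 0.862 and 0.726. These correlations are over genes that share a library and are given as a description. Cluster 12 at day 7 held 1668 cells with a median of 1672.5 UMIs, far fewer than cluster 3, and its Krt17, Stmn2 and Fst were at 2435.5, 286 and 92.3 CPM.

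**Figure D5:**
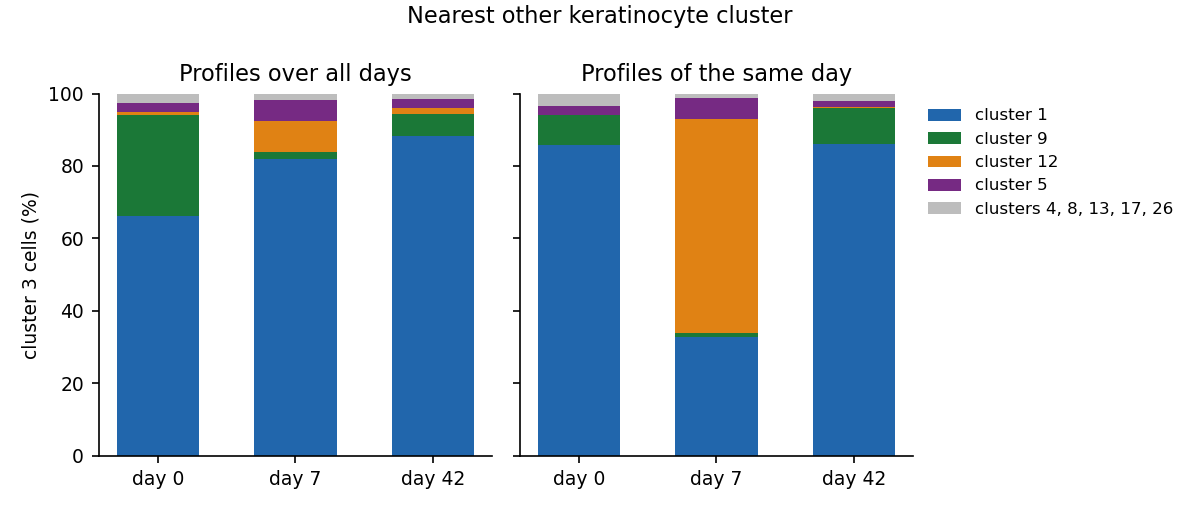
Percentage of cluster 3 cells by nearest other keratinocyte cluster at each day, with profiles averaged over all days (left) and profiles of the same day (right). Cluster 1 leads in every bar except day 7 on the right, where cluster 12 takes 59.0%.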

How the data were processed

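Cells came from 3 libraries, 1 per day, each pooling 5 mice. The deposited matrix holds whole UMI counts of 31053 genes by cell; reads were processed with Cell Ranger 3.0.2 on mm10, per the submitters' processing notes. The authors' cell table gives the library, cluster, annotation and size factor of each cell, and the authors' size factor is a ratio of the cell's total to 5283.43, the same for every cell; it was checked but not used. The clustering method, cell filters and doublet removal are not given in the sources used here, and no doublet caller was run. Coordinates are from GENCODE M21 (GRCm38), which holds 99.6% of the IDs.

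Counts were summed per cluster and library and scaled to CPM. Log2 ratios used 10 CPM added to each side, over genes that reached 10 CPM on either side. With 1 library per day there is no replicate, so no p-value was computed; levels carry exact Poisson and shares exact Clopper-Pearson intervals of 95%. Depth was 3846899, 55816878 and 9571633 UMIs in cluster 3 at days 0, 7 and 42, and 3 UMIs were worth 0.78 CPM at day 0. The genes named were the 6 markers, the 8 highest and 8 lowest in each comparison of days among genes of at least 100 CPM (leaving out Xist, Y-linked, globin, antibody, mitochondrial and ribosomal protein genes), the 12 highest against other keratinocytes, and members of 27 gene lists. A result for 1 listed gene is not reported here. The members and lists were chosen with earlier results of these data known. Cells were thinned to 2000 UMIs with a fixed seed. Nearest clusters used the multinomial likelihood of each cell under the mean profile of each other keratinocyte cluster. The scripts were tested on simulated data. Alternatives changed the pseudocount, filters, totals, doublet candidates, thinning, cells with most UMIs of a gene, and weights of nearest groups. Doublet candidates had 2 or more UMIs of another cell type's markers (neutrophil markers not counted), or were in the top 5% by UMIs. Python 3.11.15, numpy 2.4.6, pandas 2.3.3 and scipy 1.17.1 were used.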

Additional observations from a re-analysis of the deposited data

Results flagged for a closer look

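Several differences between days had opposite signs in cluster 3 and in the pool of all other keratinocytes. None of these contrasts was tested, since each day is 1 library, and the list medians are over the genes that passed the filter in both groups of cells.

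For day 42 over day 7, Ube2c had a log2 ratio of 1.01 in cluster 3 (0.86 to 1.60 under the alternatives) and -1.32 in the pool of the other keratinocytes. Within the 8 other clusters with enough cells it ran from -1.53 (cluster 5) to 0.082, with a median of -0.11, so the pooled value was not that of a typical cluster. The 52 mitotic genes that passed in both had medians of 0.66 and -0.59. By list the medians were 0.60 and -0.58 for 8 cyclin and Cdk1 genes, 0.64 and -0.64 for 11 kinetochore genes, 0.86 and -0.63 for 16 spindle genes, and 0.56 and -0.57 for 10 chromatin genes. For day 7 over day 0 the cyclin list had -0.72 in cluster 3 and 0.33 in the others, and the kinetochore list -0.88 and 0.32. Summed over the 70 mitotic genes, the other keratinocytes had 2507, 3086 and 1948 CPM at days 0, 7 and 42, highest at day 7, where cluster 3 was lowest.

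Cxcl5 had a log2 ratio of -2.24 in cluster 3 and 1.58 in the other keratinocytes for day 42 over day 7, and Ppbp had -2.07 and 2.08. No single cluster reached these pooled values: within the 8 other clusters Cxcl5 ran from -1.16 to 1.05 (median 0.39) and Ppbp from -0.80 to 1.90 (median 1.26), and cluster 5, which has the most of both, was lowest in each. The wound list, with 14 genes, had medians of -0.51 and 1.13 for the same days. The transition zone list, with 10 genes, had 0.93 and -0.34 for day 7 over day 0. The mucosal suprabasal list, with 5 genes, had 0.23 and -0.61 for day 7 over day 0, and -0.21 and 1.45 for day 42 over day 0. The makeup of the pool of other keratinocytes also differed between days: cluster 1 held 443, 563 and 3043 cells, cluster 5 held 87, 162 and 2153, and cluster 12 held 51, 1668 and 152, and the part of this in the values was not tested.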

How the results depend on the processing

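No paired analysis was possible because each day has 1 library, and for the same reason no replicate could be left out. The numbers of 2-fold genes depended on several settings. With a filter of 50 CPM, 132 were higher and 168 lower at day 7 against day 0 (main 215 and 271), 79 and 28 at day 42 against day 0 (main 134 and 54), and 82 and 45 at day 42 against day 7 (main 133 and 68). With 1 CPM added they were 410 and 744, 257 and 163, and 317 and 156. With totals that leave out mitochondrial and ribosomal protein genes, 233 were higher and 480 lower at day 7 against day 0, and 148 and 93 at day 42 against day 0. At day 42 against day 0, thinned cells gave 99 lower, and equal weight to the nearest groups gave 70 higher and 16 lower.

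The share of cluster 3 at days 0, 7 and 42 was 2.44%, 13.8% and 8.35% of all cells. Without doublet candidates it was 6.54% at day 0 and 16.5% at day 7, and with a cell filter it was 24.1% at day 7. The share of the thinned keratinocytes with a Mki67 or Top2a UMI was 16.8%, 26.7% and 17.2%. Day 7 was highest in each of these. The mitotic to replication ratio without the gene with most UMIs of each list (H2afz and Dut) was 8.16, 3.50 and 7.36, and in thinned cells 3.75 at day 7 and 8.05 at day 42. The share nearest cluster 1 was 85.9%, 32.7% and 85.9% with profiles of the same library, and 81.4%, 82.7% and 89.3% by Spearman correlation.

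Of 630 values of named genes under the alternatives, 398 moved by no more than their counting error, and 9 changed sign, all in ratios of day 42 to day 0. Of these, Dcn alone had been 2-fold: it was 0.069 with equal weight to the nearest groups (main -2.06). With the same weights Krt17 was -0.068 (main 0.44) and Rrm2 -0.17 (main 0.20). Birc5, Cdc20 and Ube2c, at -0.042, -0.021 and -0.053, reached 0.072, 0.078 and 0.011. The ratio of Ube2c at day 42 to day 7 (main 1.01) was below 2-fold in 4 alternatives, at 0.86 to 0.99. Of 264 list medians, 40 moved by 0.2 or more. The cause was not tested. Limiting the cells to those with at least 10 mitotic UMIs was an alternative chosen after seeing the data. Day 0 is the limit on depth, with 269 cells, and Fst, Cxcl5, S100a8, S100a9 and Cxcl3 each rested there on 8 UMIs or fewer.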

Other observations

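Other keratinocyte programmes were described in cluster 3 by their lists, to be read beside the shares of all genes: 2.59% were 2-fold higher and 3.26% lower at day 7 against day 0, and 1.62% and 0.651% at day 42 against day 0. Of 9 p53 target genes that passed the filter, 1 was 2-fold higher at day 7 against day 0 (Plk2, a polo-like kinase, with 15.1, 71.6 and 52.8 CPM at days 0, 7 and 42) and 0 were lower. At day 42 against day 0 it was 2 of 9 (Plk2 and Cdkn1a) and 0. Of 14 growth receptor genes, 0 were 2-fold higher and 1 was lower at day 7 against day 0, and 2 and 1 at day 42 against day 0. Outer root sheath genes were 2-fold higher in 2 and lower in 3 of 8 at day 7 against day 0. The 2 higher were Fst and Krt17, given above as markers of the cluster, and Krt17 is in the wound list too. This count is therefore not separate from their values. Sebaceous duct genes were higher in 2 and lower in 1 of 8, hair matrix genes in 0 and 1 of 3, and hedgehog targets in 0 and 0 of 2.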
